A study of Mus musculus with 12 samples.

Results

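Upper-layer neuron regulators are proteins that mark or shape the late-born projection neurons of the cerebral cortex. The 9 genes followed here were the Cut-homeodomain factors Cux1 and Cux2, the POU-homeodomain factors Pou3f1, Pou3f2 and Pou3f3, the nuclear receptor Rorb, the MADS-box factor Mef2c, the LIM-only factor Lmo4 and the surface protein Mdga1. Members were all probes that the platform annotation gives to one of these 9 symbols. They came to 21 of the 45281 probes on the array, for 8 of 19057 annotated genes. Pou3f2 had no annotated probe and was not analysed here.

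Total RNA of embryonic mouse cortex was hybridised to 12 single-colour Illumina WG-6 v2.0 bead arrays, 4 for each of the stages E12.5, E15.5 or E18.5, where the number is the embryonic day. The groups differed only by stage, the labels give no treatment or allele, and the study describes its wild-type mice as C57BL/6J without naming the strain for the arrays. RNA of 4 embryos was used per stage, and the labels do not say whether an array held RNA of 1 embryo. The p-values therefore measure the spread between these arrays. Cortical tissue is a mixture of cells, so fewer cells of a type and less RNA per cell cannot be told apart.

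The cortex is built from the inside out. Progenitors near the ventricle first make deep-layer neurons and later make the neurons of layers II to IV, which migrate past the earlier ones. Several of the genes here are also active in progenitors, deep-layer neurons or interneurons.

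Values below are log2 intensities after background correction and quantile normalization, and a difference of 1 is a 2-fold change. A probe counted as detected on an array where its detection p was under 0.01, which means that its signal exceeded nearly all negative-control beads. Probes detected on at least 1 of the 12 arrays were tested with limma, and a probe is said to rise or fall where the adjusted p was under 0.01 over all 19652 probes tested. Between 15227 and 17472 probes were detected per array. All 6 tested genes of cortical identity (Emx1, Neurod6, Neurod2, Tbr1, Slc17a7 and Lhx2) were detected on at least 1 array of every stage. The E12.5 array replicate 4 stood apart from its group. Its mean correlation with the E15.5 arrays was 0.970, and those of the other E12.5 arrays were between 0.926 and 0.935. The E15.5 array replicate 4 carried a summed choroid plexus signal of 11782, and the other E15.5 arrays carried 330 to 379. The probe values that replicate 4 of E12.5 moved most are also given without it.

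Of the 21 probes, 16 passed the detection filter and 5 did not. The 5 untested probes were ILMN_1248236 and ILMN_2971011 of Cux2, ILMN_3137520 and ILMN_1224798 of Rorb, and ILMN_2520812 of Mef2c. Their log2 values lay between 4.38 and 5.54 on every array. A total of 5 probes were detected on all 12 arrays, 1 each for Cux1, Cux2, Pou3f3, Mef2c and Lmo4. ILMN_1214950 and ILMN_1220270 of Mef2c passed through E18.5 alone, and ILMN_1240019 of Cux1 and the Mdga1 probe each passed through a single E12.5 array. A probe that passes through the stage where it is high has to differ from the others, so these 4 probes are given by their values, and counts are also given over the other 12. Those 12 still include the Rorb probe ILMN_1252870, which passed through E15.5 and E18.5 only.

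**Figure D1:**
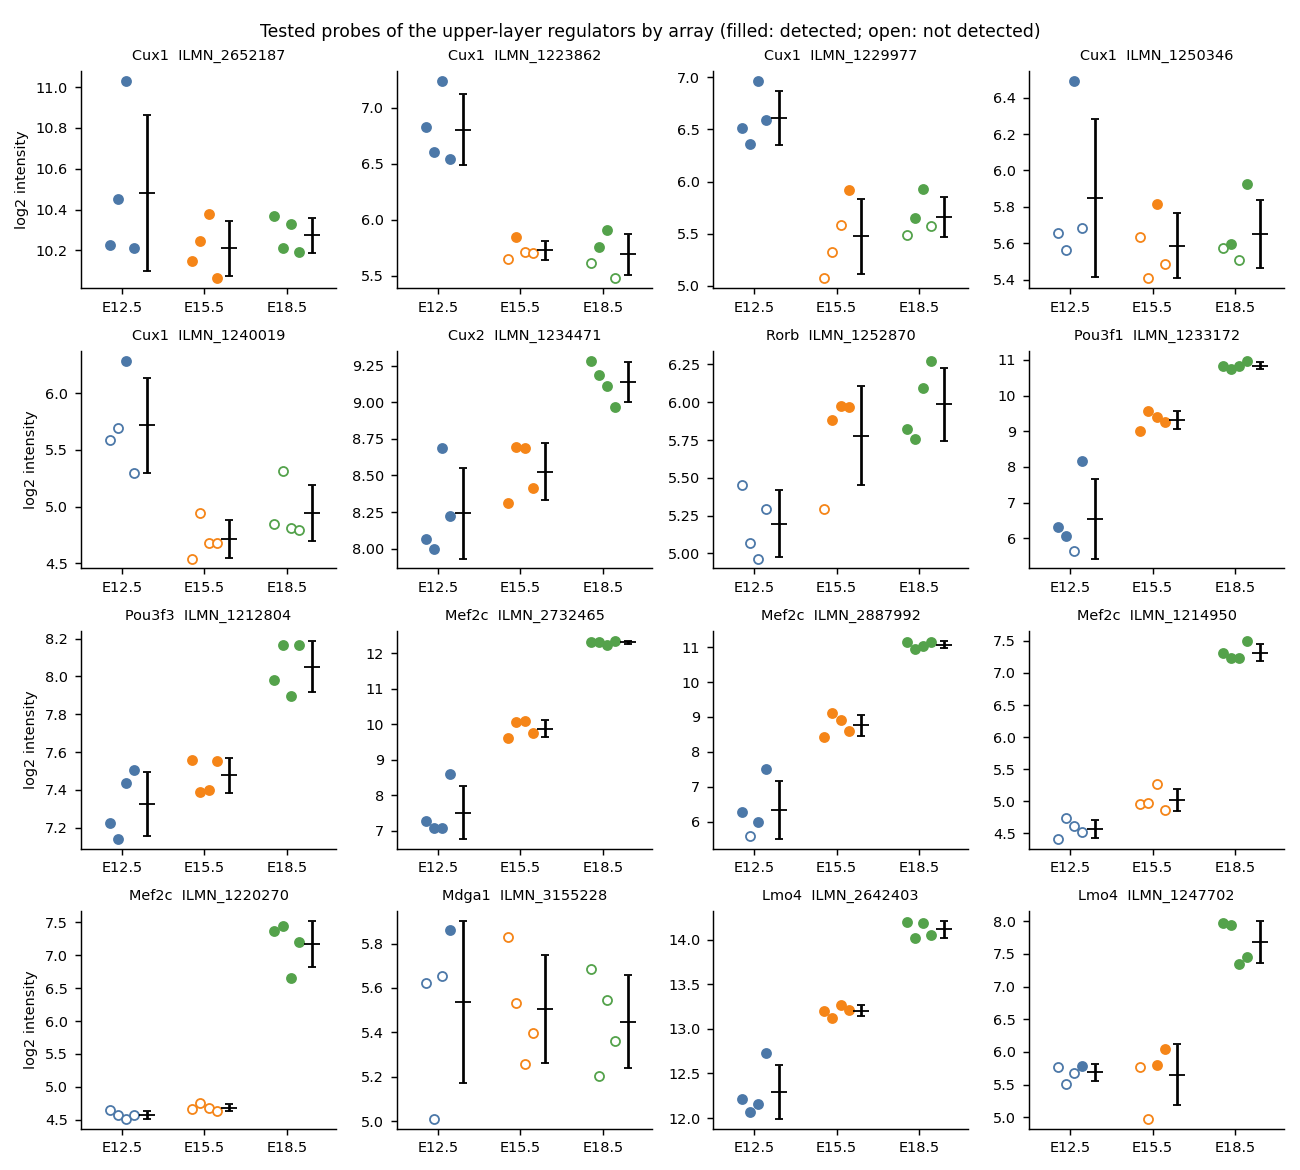
Log2 intensity of the 16 tested probes (y axis, its range set for each panel) on every array of the 3 stages (x axis). Filled points are arrays where the probe was detected, open points are arrays where it was not, and black bars are the mean and SD of 4 arrays. The bright probes of Mef2c and Lmo4 step up at each stage without overlap, and 3 Cux1 probes drop after E12.5.

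The stretch around the start site was available from RefSeq (GRCm38.p6) for 8 of the 9 genes, as 14 windows of 250 bases before and 50 bases after a start, and Pou3f1 was not among them. The windows were searched on both strands for 5 short motifs bound by members or by neighbouring factors. These were the MEF2 box (3.69% of all 32851 promoter windows), the POU octamer ATGCAAAT (1.74%), the neuronal E-box CAGATG (17.2%), the ROR site AGGTCA (16.3%) and the Cut site ATCGAT (0.925%). Motifs matched in 3 of the 14 windows. All 3 are printed because they belong to Cux2 and Mef2c, which rose below. Capitals mark the motif matches.

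Cux2, chr5:122047776-122048075, minus strand: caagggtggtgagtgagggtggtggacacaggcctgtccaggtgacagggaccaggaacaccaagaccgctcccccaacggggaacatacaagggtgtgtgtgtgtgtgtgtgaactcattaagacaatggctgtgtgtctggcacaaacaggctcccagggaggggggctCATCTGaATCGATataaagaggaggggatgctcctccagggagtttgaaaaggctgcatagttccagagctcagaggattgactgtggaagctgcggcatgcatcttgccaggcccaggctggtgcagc
Mef2c, chr13:83573357-83573656, plus strand: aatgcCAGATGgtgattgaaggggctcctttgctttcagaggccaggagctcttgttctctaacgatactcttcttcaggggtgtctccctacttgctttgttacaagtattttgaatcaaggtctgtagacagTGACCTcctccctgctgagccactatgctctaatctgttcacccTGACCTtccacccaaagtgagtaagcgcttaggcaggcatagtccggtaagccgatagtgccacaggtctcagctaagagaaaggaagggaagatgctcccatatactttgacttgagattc
Mef2c, chr13:83523406-83523705, plus strand: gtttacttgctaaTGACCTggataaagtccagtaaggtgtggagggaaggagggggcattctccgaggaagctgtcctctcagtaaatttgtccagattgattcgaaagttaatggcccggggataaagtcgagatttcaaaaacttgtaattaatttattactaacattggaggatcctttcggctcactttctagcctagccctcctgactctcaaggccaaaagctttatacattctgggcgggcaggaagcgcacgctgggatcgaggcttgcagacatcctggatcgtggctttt

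In the Cux2 window the E-box (on the opposite strand) begins at position -79 from the start and the Cut site at position -72, a single base apart. The first Mef2c window holds an E-box at position -245 and ROR sites on the opposite strand at positions -116 and -72. The second Mef2c window holds a ROR site on the opposite strand at position -237. A match describes the letters only, and binding was not measured here.

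Over the whole interval most of these regulators rose. At E18.5 against E12.5, 10 of the 16 tested probes were higher and 3 were lower, where 30% of all tested probes were higher and 33.3% were lower. The 10 higher probes belonged to 6 genes, Cux2, Rorb, Pou3f1, Pou3f3, Mef2c and Lmo4. Among the 10, the Rorb probe and the Mef2c probes ILMN_1214950 and ILMN_1220270 entered the test only through stages where they are high. All 3 lower probes belonged to Cux1, and ILMN_1240019 among them entered through a single E12.5 array. With each gene read from its tested probe of highest mean, 6 of 8 genes were higher and 0 were lower, with a median log2 fold change of 0.84 against -0.07 over all tested probes. Over the 12 probes detected at more than 1 stage, 8 were higher and 2 were lower. The Rorb probe is still among these 8 and among the 6 higher genes. With a 2-fold minimum, 7 of the 16 probes were higher and 1 was lower, against 15.3% and 13% of all tested probes, and the count lower was 0 without background correction or without replicate 3 of E12.5.

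Taken by interval, probes rose in both, and the only falls were early ones of dim Cux1 probes. At E15.5 against E12.5, 6 probes were higher and 3 were lower, where the shares over all tested probes were 21.7% and 21.6%. The 6 include ILMN_1214950 of Mef2c, detected at neither stage, and the Rorb probe, which entered only through E15.5 and E18.5. The 3 lower include ILMN_1240019 of Cux1, which entered through a single E12.5 array. At E18.5 against E15.5, 9 were higher and 0 were lower, where the shares were 19.9% and 21.3%. The 9 include ILMN_1214950 and ILMN_1220270 of Mef2c, which entered through E18.5 alone. The 3 early falls belonged to dim probes of Cux1, whose brightest probe did not pass. Their number lies near the share over all tested probes. Over the 12 probes detected at more than 1 stage the counts were 5 higher and 2 lower early, and 7 higher and 0 lower late. The Rorb probe is still among the 5. With a 2-fold minimum, 3 of the 16 probes were higher and 3 were lower early (6.76% and 5.29% of all tested probes), and 6 were higher and 0 lower late (6.98% and 4.87%). The 3 probes lower by 2-fold became 1 without replicate 3 of E12.5 and 0 without background correction. Array by array, every E18.5 value lay above every E12.5 value for 10 probes and below for 2 (30.8% and 34.6% of all tested probes). Every E15.5 value lay above every E12.5 value for 5 probes and below for 3 (25.1% and 24.3%), and every E18.5 value lay above every E15.5 value for 9 and below for 0 (25.2% and 28.2%). Each of these counts above, and the early count below, includes probes that passed the filter only through stages where they are high.

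**Figure D2:**
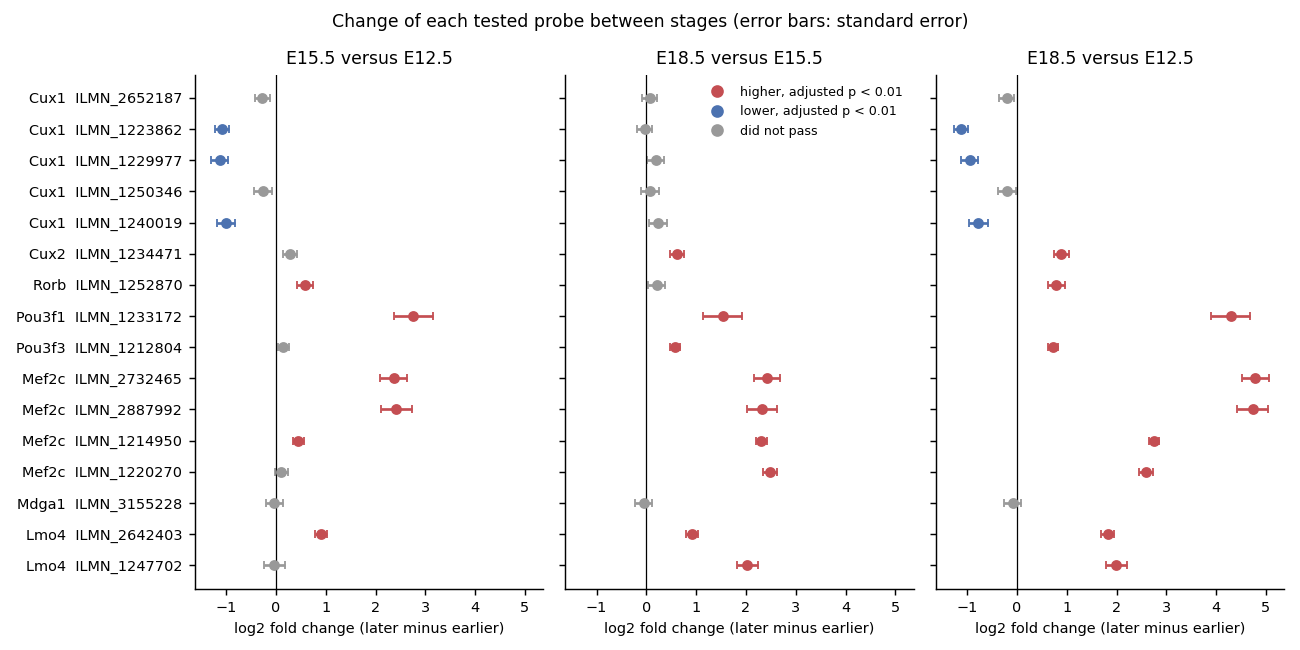
Log2 fold change (x axis, later minus earlier stage) of each of the 16 tested probes (y axis) in the 3 comparisons, with the standard error as error bar. Fitted values of Rorb, ILMN_1240019 of Cux1 and the dim Mef2c probes rest on stages where they were not detected. Red points were higher and blue points lower at an adjusted p under 0.01, and grey points did not pass. The right panel has 10 red points and 3 blue points, with every blue point on Cux1.

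Mef2c showed the steepest climb of the group. Mef2c encodes a MADS-box transcription factor that acts in neuronal differentiation and in setting synapse number. Its brightest probe, ILMN_2732465, read 7.28, 7.09, 7.07 and 8.61 at E12.5, 9.61, 10.06, 10.08 and 9.76 at E15.5, and 12.32, 12.31, 12.23 and 12.33 at E18.5. The 3 stages did not overlap, and the high E12.5 value was that of replicate 4. The probe was 27.6-fold higher at E18.5 versus E12.5 (log2 4.78, SE 0.27, limma adjusted p = 2.61e-09). It was 5.15-fold higher at E15.5 versus E12.5 (adjusted p = 1.10e-05) and 5.35-fold higher at E18.5 versus E15.5 (adjusted p = 5.60e-06). The second interval's log2 change exceeded the first's by 0.06 with a standard error of 0.46 (adjusted p = 0.941). Without replicate 4 of E12.5 the log2 fold change at E18.5 against E12.5 was 5.15, and at E15.5 against E12.5 it was 2.73.

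A second bright Mef2c probe also rose at each step. ILMN_2887992 read 6.28, 5.59, 5.98 and 7.52 at E12.5, 8.44, 9.11, 8.90 and 8.60 at E15.5, and 11.16, 10.94, 11.05 and 11.16 at E18.5. It too separated the stages completely and was high in replicate 4 of E12.5, and it was not detected on replicate 2 of E12.5. Its log2 fold change at E18.5 against E12.5 was 4.73 (SE 0.31, adjusted p = 1.01e-08), or 5.12 without replicate 4 of E12.5, and at E15.5 against E12.5 it was 2.81 without that array. Taken within each array, the change of ILMN_2732465 exceeded that of ILMN_2887992 by 0.05 with a 95% interval from -0.21 to 0.31 (adjusted p = 0.812). This closeness depends on the background correction. Without it the excess at E18.5 against E12.5 was 0.45 with a 95% interval from 0.26 to 0.64 (adjusted p = 0.000576), past the threshold.

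The remaining tested Mef2c probes were detected at E18.5 only. ILMN_1214950 read 4.41, 4.73, 4.62 and 4.51 at E12.5, 4.96, 4.97, 5.26 and 4.86 at E15.5, and 7.31, 7.23, 7.23 and 7.50 at E18.5. ILMN_1220270, which the annotation ties to a cDNA clone record and not to the reference mRNA, read 4.65, 4.57, 4.51 and 4.56 at E12.5, 4.66, 4.75, 4.68 and 4.64 at E15.5, and 7.38, 7.44, 6.66 and 7.20 at E18.5. Neither was detected on any E12.5 or E15.5 array, and both were detected on all 4 E18.5 arrays. Fold changes of these probes are therefore lower bounds, computed against the lowest signal among detected probes on each array of the earlier stage. They entered the test through E18.5, where they are high, so no p-value is given for them. The bounds for ILMN_1214950 were at least 2.90-fold at E18.5 against E12.5 and at least 2.88-fold above E15.5. For ILMN_1220270 they were at least 2.61-fold against E12.5 and at least 2.59-fold against E15.5. ILMN_1214950 was also counted as higher at E15.5 versus E12.5, where it was detected at neither stage and no fold is given. It was no longer counted without replicate 1 of E12.5 or without replicate 3 of E15.5.

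Pou3f1 followed with a rise of the same order. Pou3f1, also known as Oct6 or SCIP, is a POU-homeodomain factor found in cortical projection neurons and in myelinating glia. Its only probe, ILMN_1233172, read 6.32, 6.07, 5.64 and 8.18 at E12.5, 9.0, 9.57, 9.41 and 9.26 at E15.5, and 10.82, 10.74, 10.83 and 10.98 at E18.5. Stages did not overlap, replicate 4 was again the high E12.5 array, and replicate 3 of E12.5 was the single array where the probe was not detected. The probe was 19.5-fold higher at E18.5 versus E12.5 (log2 4.29, SE 0.39, adjusted p = 3.06e-07), or 4.83 on the log2 scale without replicate 4 of E12.5. It was 6.76-fold higher at E15.5 versus E12.5 (adjusted p = 5.71e-05), with a log2 fold change of 2.76, or 3.30 without that array. The late step was 2.89-fold at E18.5 against E15.5 (log2 1.53, SE 0.39, adjusted p = 0.00484). That late call was lost in 7 of the 12 fits that left out 1 array, all of them E15.5 or E18.5 arrays, where the adjusted p ran as high as 0.0166, although the values of E18.5 and E15.5 did not overlap. The difference between the 2 intervals did not pass the test (second minus first -1.22 on the log2 scale, SE 0.68, adjusted p = 0.195).

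Pou3f3, known as Brn1, acts together with Pou3f2 in the production and migration of upper-layer neurons, and it rose by much less. ILMN_1212804, its only probe, read 7.22, 7.14, 7.44 and 7.50 at E12.5, 7.56, 7.39, 7.40 and 7.55 at E15.5, and 7.98, 8.16, 7.90 and 8.17 at E18.5. E12.5 and E15.5 overlapped, and all 4 E18.5 arrays lay above both. The early difference did not pass the test (log2 0.15 at E15.5 against E12.5, 95% interval -0.07 to 0.37, adjusted p = 0.231). The level was 1.49-fold higher at E18.5 versus E15.5 (adjusted p = 0.000355) and 1.65-fold higher at E18.5 versus E12.5 (log2 0.73, SE 0.10, adjusted p = 2.17e-05).

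Cux2 and Cux1, which shape dendrite branching and spines in upper-layer neurons, went different ways on the array. For Cux2, ILMN_1234471 read 8.06, 8.0, 8.68 and 8.23 at E12.5, 8.31, 8.69, 8.68 and 8.41 at E15.5, and 9.28, 9.19, 9.11 and 8.97 at E18.5. The first 2 stages overlapped and every E18.5 array lay above them. Cux2 was 1.86-fold higher at E18.5 versus E12.5 (log2 0.90, SE 0.15, adjusted p = 8.11e-05) and 1.53-fold above E15.5 (log2 0.61, SE 0.15, adjusted p = 0.00303). The late call was lost without replicate 1 of E15.5 (adjusted p = 0.0122), replicate 4 of E15.5 (0.0108) or replicate 1 of E18.5 (0.0114). The early difference did not pass (log2 0.28 at E15.5 against E12.5, adjusted p = 0.113) but did without replicate 3 of E12.5 (log2 0.43, adjusted p = 0.00850).

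The brightest Cux1 probe, ILMN_2652187, changed little. It read 10.23, 10.45, 11.03 and 10.21 at E12.5, 10.15, 10.25, 10.38 and 10.06 at E15.5, and 10.37, 10.21, 10.33 and 10.19 at E18.5. All stages overlapped, and the spread at E12.5 came mostly from replicate 3. At E18.5 against E12.5 the log2 difference was -0.21 with a 95% interval from -0.54 to 0.13 (adjusted p = 0.243), and at E15.5 against E12.5 it was -0.27 with an interval from -0.60 to 0.06 (adjusted p = 0.150). At E18.5 against E15.5 it was 0.07, with an interval from -0.27 to 0.40 (adjusted p = 0.741).

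Most of the dimmer Cux1 probes fell after E12.5. The annotation assigns these 4 probes to another Cux1 transcript record than the brightest one. ILMN_1223862 read 6.83, 6.60, 7.24 and 6.54 at E12.5, 5.65, 5.85, 5.71 and 5.70 at E15.5, and 5.62, 5.76, 5.91 and 5.48 at E18.5. ILMN_1229977 read 6.52, 6.36, 6.97 and 6.59 at E12.5, 5.07, 5.33, 5.59 and 5.92 at E15.5, and 5.49, 5.65, 5.93 and 5.58 at E18.5. For both probes the E12.5 arrays stood clear of the others, with detection on all 4 E12.5 arrays, 1 E15.5 array and 2 E18.5 arrays. ILMN_1223862 was 2.11-fold lower at E15.5 versus E12.5 (adjusted p = 3.24e-05) and 2.17-fold lower at E18.5 versus E12.5 (adjusted p = 8.27e-06). ILMN_1229977 was 2.19-fold lower at E15.5 versus E12.5 (adjusted p = 0.000109) and 1.93-fold lower at E18.5 versus E12.5 (adjusted p = 0.000246). Neither passed the threshold at E18.5 against E15.5 (log2 -0.04 for ILMN_1223862 and 0.19 for ILMN_1229977). The sizes depend on the background correction. Without it the log2 fold changes at E15.5 against E12.5 were -0.59 for ILMN_1223862 and -0.58 for ILMN_1229977, and at E18.5 against E12.5 they were -0.61 and -0.50 for the same probes, all still past the threshold.

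The last pair of Cux1 probes sat near background. ILMN_1240019 read 5.59, 5.69, 6.28 and 5.30 at E12.5, 4.54, 4.94, 4.68 and 4.68 at E15.5, and 4.85, 5.32, 4.81 and 4.80 at E18.5, and was detected on 1 array, replicate 3 of E12.5. It entered the test through that array alone, at the stage where it is high, so no p-value is given. No bound on its fall is given, because its E12.5 mean also rests on arrays where it was not detected. The E12.5 and E18.5 values overlapped. ILMN_1250346 ran from 5.41 to 6.49 over all arrays, was detected on 4 of them, and passed in no comparison. Replicate 3 of E12.5 gave the highest of the 12 values for all 5 Cux1 probes. Without it, the log2 fold change at E15.5 against E12.5 was -0.93 for ILMN_1223862, -1.01 for ILMN_1229977 and -0.81 for ILMN_1240019, and -0.09 for ILMN_2652187, with the first pair still past the threshold.

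Rorb, an orphan nuclear receptor of layer IV neurons, came up from below detection. ILMN_1252870 read 5.45, 5.07, 4.97 and 5.30 at E12.5, 5.29, 5.88, 5.97 and 5.97 at E15.5, and 5.82, 5.76, 6.10 and 6.27 at E18.5. It was detected on 0 of 4 arrays at E12.5, 3 of 4 at E15.5 and all 4 at E18.5, and the E18.5 values lay above every E12.5 value. The bound for its rise was at least 1.15-fold at E18.5 against E12.5. It entered the test only through E15.5 and E18.5, where it is high, so tests against E12.5 are no separate support for a rise. At E15.5 against E12.5 the groups overlapped through replicate 1 of E15.5, the adjusted p was 0.00958, and no fold is given because the bound fell below 1. That early call was lost in 9 of the 12 fits that left out 1 array. Those arrays were replicates 2, 3 and 4 of E12.5, replicates 2, 3 and 4 of E15.5 and replicates 1, 2 and 3 of E18.5, and the adjusted p reached 0.0324. The difference at E18.5 against E15.5 was 0.21 on the log2 scale (95% interval -0.15 to 0.57, adjusted p = 0.317).

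Lmo4 is a LIM-only protein that binds Ldb cofactors and takes part in the identity of callosal and subcerebral projection neurons. ILMN_2642403, its reference mRNA probe, read 12.21, 12.06, 12.16 and 12.73 at E12.5, 13.21, 13.12, 13.27 and 13.21 at E15.5, and 14.20, 14.02, 14.19 and 14.05 at E18.5. The 3 stages were fully separate and nearly evenly spaced, with replicate 4 the high array of E12.5. The probe was 1.88-fold higher at E15.5 versus E12.5 (adjusted p = 4.60e-05), 1.88-fold higher at E18.5 versus E15.5 (adjusted p = 4.12e-05) and 3.54-fold higher at E18.5 versus E12.5 (log2 1.82, SE 0.13, adjusted p = 1.89e-08). Without replicate 4 of E12.5 the last value was 1.97 on the log2 scale.

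The other Lmo4 probe showed a rise in the late interval only. ILMN_1247702, tied to a cDNA clone record, read 5.77, 5.50, 5.68 and 5.79 at E12.5, 5.78, 4.98, 5.81 and 6.05 at E15.5, and 7.98, 7.94, 7.35 and 7.46 at E18.5. E12.5 and E15.5 overlapped, with detection on 1 and 2 arrays, and E18.5 lay clear above both with detection on all 4. An early rise may be understated at values this near background. The log2 difference was -0.03 at E15.5 against E12.5 (adjusted p = 0.900), 2.03 at E18.5 against E15.5 (adjusted p = 2.64e-06) and 1.99 at E18.5 against E12.5 (adjusted p = 1.06e-06).

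Mdga1, a membrane-anchored immunoglobulin-domain protein that binds neuroligins and acts in the migration of upper-layer neurons, stayed near background. ILMN_3155228 read 5.62, 5.01, 5.65 and 5.86 at E12.5, 5.83, 5.53, 5.26 and 5.40 at E15.5, and 5.69, 5.20, 5.54 and 5.36 at E18.5. It was detected on replicate 4 of E12.5 alone, the stages overlapped throughout, and no comparison passed. At this level a lack of change cannot be told from a lack of signal. The log2 difference was -0.09 at E18.5 against E12.5 (95% interval -0.47 to 0.29) and -0.03 at E15.5 against E12.5 (95% interval -0.41 to 0.35). Without replicate 4 of E12.5 these values were 0.02 and 0.08.

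Probes of 1 gene were compared within each array, which tests whether their changes differ and leaves their levels aside. The 16 tested probes gave 17 same-gene pairs, 10 in Cux1, 6 in Mef2c and 1 in Lmo4, and pairs of 1 gene share probes. Changes differed in 10 pairs at E15.5 against E12.5, in 1 pair at E18.5 against E15.5 and in 8 pairs at E18.5 against E12.5. Over all 8813 same-gene pairs on the array the shares were 11.5%, 11.6% and 22.7%. Over the 8 pairs in which both probes were detected at more than 1 stage, 5, 1 and 3 differed in the same order of comparisons. The count of 10 was 5 without replicate 1 of E12.5, replicate 1 of E15.5 or replicate 3 of E15.5. In each of the 17 pairs at least 1 probe was below detection on some array.

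For Cux1, ILMN_2652187 exceeded ILMN_1223862 by 0.80 in the log2 fold change at E15.5 against E12.5 (adjusted p = 0.000534) and by 0.91 at E18.5 against E12.5 (adjusted p = 7.16e-05). Against ILMN_1229977 the excess was 0.86 (adjusted p = 0.00523) and 0.74 (adjusted p = 0.00743). These differences depend on the background correction. Without it the early excess was 0.33 over ILMN_1223862 (adjusted p = 0.0301) and 0.32 over ILMN_1229977 (adjusted p = 0.0895), and neither passed. At E18.5 against E12.5 it was then 0.41 (adjusted p = 0.00487, passing) and 0.30 (adjusted p = 0.0761, not passing). The change of ILMN_1223862 and that of ILMN_1229977 differed by 0.06 in the early interval, with a 95% interval from -0.29 to 0.40 (adjusted p = 0.875). For Mef2c, each bright probe exceeded each dim probe by 1.92 to 2.31 early and by 1.98 to 2.19 over the whole interval, values given with no test, since they rest on dim probes below detection at E12.5 and E15.5.

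The Lmo4 pair differed in the early interval and, the other way, in the late one. ILMN_1247702 was detected on 1 E12.5 array and 2 E15.5 arrays, so both differences rest partly on values near background. ILMN_2642403 exceeded ILMN_1247702 by 0.94 in the log2 fold change at E15.5 against E12.5 (95% interval 0.49 to 1.40, adjusted p = 0.00619). At E18.5 against E15.5 the difference was -1.11 (95% interval -1.57 to -0.66, adjusted p = 0.00184), and over the whole interval it was -0.17 (95% interval -0.63 to 0.29, adjusted p = 0.604). This pattern depends on the background correction. Without it the early difference was 0.91 (adjusted p = 0.000162), the late one was -0.33 and did not pass (adjusted p = 0.116), and the one over the whole interval was 0.58 (adjusted p = 0.00350). In that setting the pairs counted as differing late were the 4 of a bright with a dim Mef2c probe, by 0.80 to 1.09.

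**Figure D3:**
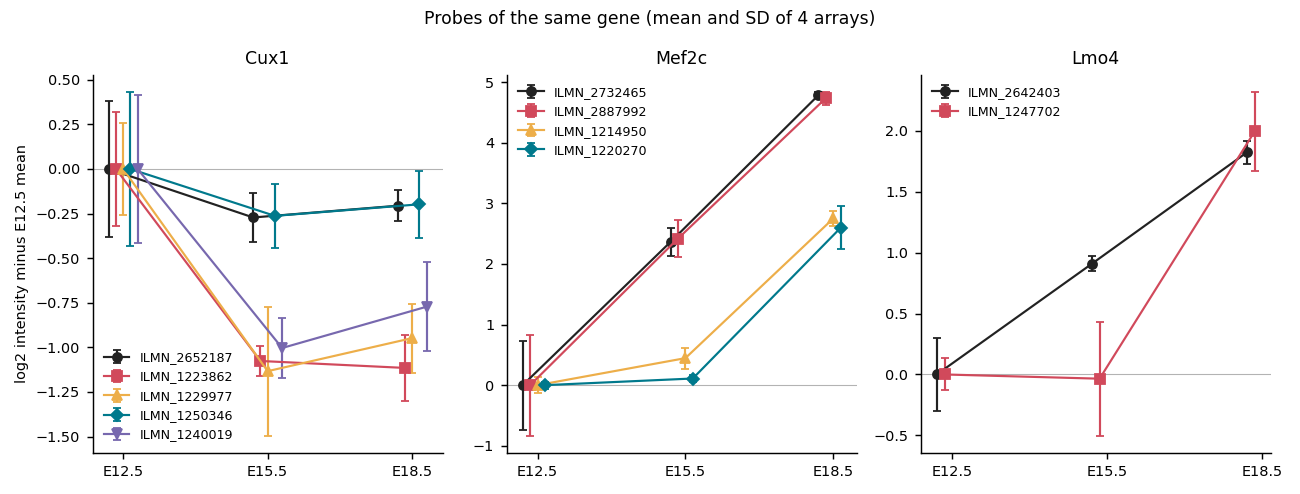
Change in log2 intensity from the E12.5 mean (y axis) at each stage (x axis) for the tested probes of Cux1, Mef2c and Lmo4, each gene with its own y range, as the mean and SD of 4 arrays per stage. The brightest Cux1 probe stays near 0 while 3 others fall by about 1, and the Lmo4 probes part at E15.5.

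The change in the second interval was tested against that in the first. It differed for 3 of the 12 probes detected at more than 1 stage, ILMN_1223862 and ILMN_1229977 of Cux1 and ILMN_1247702 of Lmo4. With ILMN_1214950 and ILMN_1220270 of Mef2c, which entered through E18.5 alone, the count was 5 of 16, where 17.8% of all tested probes passed. Second minus first was 1.04 (adjusted p = 0.00656) and 1.32 (adjusted p = 0.00532) for the Cux1 probes in that order, and 2.06 (adjusted p = 0.000849) for Lmo4. The count of 5 was 3 without replicate 1, 2 or 3 of E15.5 or without replicate 2 or 3 of E18.5.

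The genes most like each member were those of highest Pearson r over the 12 arrays among 10330 genes, and these values describe shared stage profiles over the same arrays, with no test. The 3 closest to Mef2c were Syt4 (r = 0.9997), Pcdha7 (0.999) and Diras2 (0.999), and to Pou3f1 they were Gramd1b (0.998), Tmem130 (0.998) and Camk2b (0.998). Syt4, a synaptotagmin of secretory vesicles, was also the third for Lmo4 (0.996), after Arsb (0.996) and Dpp10 (0.996). Cux2 was closest to Cmip (0.9755), Rtl8b (0.973) and Lmtk3 (0.968), and Pou3f3 to Prrc2b (0.966), Rab11fip4 (0.962) and Scoc (0.961). Rorb was closest to Hp1bp3 (0.933), Epn2 (0.931) and Zfp148 (0.930). The order was weaker for Cux1, with Celsr2 (0.925), Arrb2 (0.908) and Asap2 (0.893), and for Mdga1, with Macf1 (0.906), Rasa4 (0.763) and Pyroxd2 (0.745). The Mdga1 probe was detected on replicate 4 of E12.5 alone, so its values compare mostly background and cannot be read as a stage profile. Without that array they were 0.886, 0.693 and 0.731 in the same order.

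Most of the other genes known from upper layers were higher at the end. Of 15 such genes 13 had a probe and 9 were tested. At E18.5 against E12.5, 7 of the 9 were higher and 2 lower, with a median log2 fold change of 0.83. At E15.5 against E12.5, 4 were higher and 4 lower, and at E18.5 against E15.5, 6 were higher and 1 lower. Over all tested probes, 30% were higher and 33.3% lower at E18.5 against E12.5. The shares were 21.7% and 21.6% at E15.5 against E12.5, and 19.9% and 21.3% at E18.5 against E15.5. These shares also apply beside the counts of the lists below. Inhba, an activin subunit, was detected on 0 arrays at E12.5 and on all 4 at E18.5 and rose at least 3.53-fold over that time. Kcnip2, a potassium channel partner, was at least 1.79-fold higher on the same terms. Both were ranked among the largest changes by fitted values that rest on E12.5 arrays where they were not detected. Both are among the 7 higher genes and entered the test only through later stages, where they are high. Limch1 rose by 1.95 on the log2 scale (SE 0.17, adjusted p = 1.58e-07). The 2 lower genes were chosen after their values were seen. Lhx2, a LIM-homeodomain factor of cortical progenitors, had a log2 fold change of -1.95 (SE 0.12, mean 8.59 at E18.5 against 10.54 at E12.5, adjusted p = 6.06e-09). Tle1, a Groucho corepressor, had a log2 fold change of -0.35 (adjusted p = 0.00182).

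Relatives of the members within their protein families were mixed. Of 15 listed, 9 were tested, and 4 were higher and 1 lower at E18.5 against E12.5 (median log2 fold change 0.23), with 4 higher and 2 lower at E15.5 against E12.5 and 4 higher and 1 lower at E18.5 against E15.5. Mdga2, the paralogue of Mdga1, was higher by 2.99 on the log2 scale (mean 9.52 at E18.5 against 6.53 at E12.5, adjusted p = 1.39e-09). Lmo3 was higher by 1.77 (mean 10.11 against 8.34, adjusted p = 1.63e-09), and Lmo2, known from blood and vessel development, had a log2 fold change of -1.64 (mean 9.28 against 10.92, adjusted p = 6.28e-09).

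Binding partners and cofactors of the members were also tested, 10 of 12 listed. At E18.5 against E12.5, 6 were higher and 2 lower (median log2 fold change 0.65). At E15.5 against E12.5, 6 were higher and 1 lower, and at E18.5 against E15.5, 4 were higher and 2 lower. Ldb2, a LIM-domain-binding cofactor of Lmo4 family proteins that also marks deep-layer neurons, was higher by 3.66 (mean 11.19 at E18.5 against 7.54 at E12.5, adjusted p = 2.63e-09). Nlgn1, a neuroligin of the family that MDGA proteins bind, was higher by 1.94 (mean 7.34 against 5.40, adjusted p = 2.98e-05). Nlgn1 was detected on only 1 of the 4 E12.5 arrays, so this size rests on values near background. Sox2, a progenitor factor and partner of POU proteins, had a log2 fold change of -1.64 (mean 8.17 against 9.81, adjusted p = 9.14e-08).

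**Figure D4:**
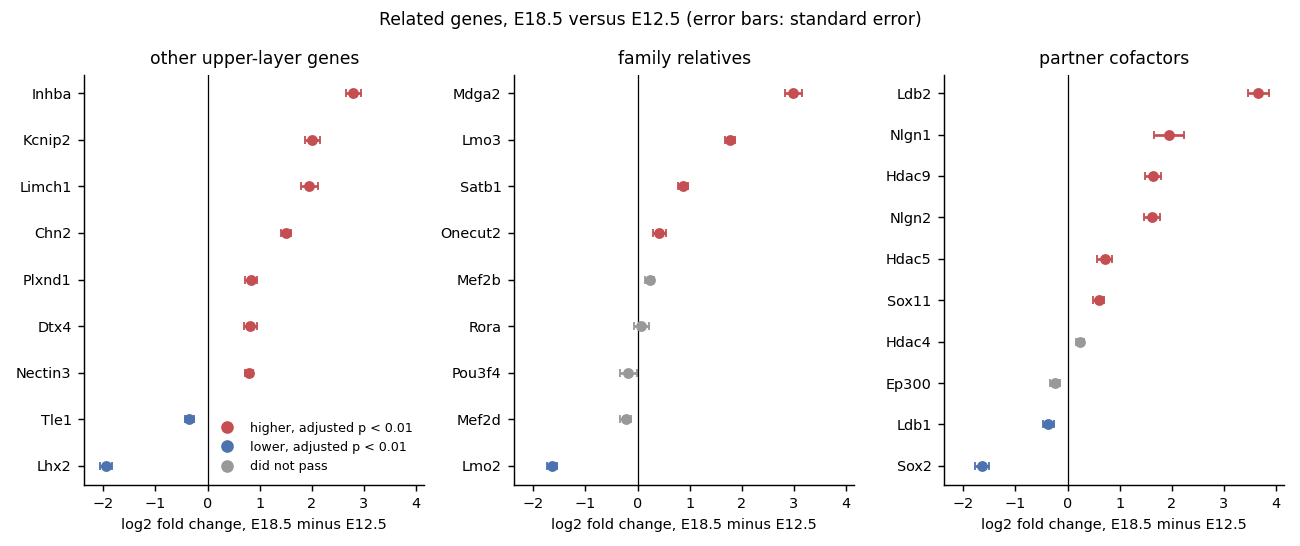
Log2 fold change at E18.5 against E12.5 (x axis) with standard error for 9 other upper-layer genes, 9 family relatives and 10 partner cofactors (y axis). Red points were higher and blue points lower at an adjusted p under 0.01, and grey points did not pass. Ldb2 at 3.66 and Mdga2 at 2.99 lie farthest to the right, and Inhba and Kcnip2 were not detected at E12.5.

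Markers of other cells in the tissue moved over the same stages. All 8 tested interneuron genes were higher at E18.5 versus E12.5, with a summed linear intensity of 196 to 1304 at E12.5, then 2704 to 4105 at E15.5, then 9555 to 10206 at E18.5. Lhx6 was not detected at E12.5 or E15.5, and each of the others was detected on only 1 E12.5 array. The 1304 was that of replicate 4 of E12.5, the array with the highest E12.5 values of Mef2c, Pou3f1 and the bright Lmo4 probe, and the other E12.5 arrays read 196 to 214. Of the 7 tested endothelial genes 5 were higher at E18.5 versus E12.5, with sums of 2408 to 2753 against 712 to 937, and of the 8 microglial genes 3 were higher, with sums of 621 to 692 against 451 to 528 and C1qa, P2ry12 and Trem2 not detected at E12.5. Deep-layer genes were higher in 8 of 10, with sums of 25057 to 25861 at E18.5 against 13372 to 18605 at E12.5. Apical progenitor genes were lower in 7 of 9 and higher in 1, with sums of 7111 to 7896 at E18.5 against 13028 to 14686 at E12.5, and Pax6 was not detected at E18.5. Choroid plexus genes were lower in all 5, with sums of 134 to 203 at E18.5 against 6699 to 19035 at E12.5, and Folr1, Kcne2, Clic6 and Otx2 were not detected at E18.5. Intermediate progenitor genes were lower in 4 of 6 and higher in 0, with sums of 3034 to 3747 at E18.5 against 7233 to 9393 at E12.5. Of the 7 tested striatal genes 4 were higher, with sums of 7060 to 7767.7 at E18.5 against 6661 to 7437 at E12.5 and Rgs9 not detected at E12.5. Of the 5 tested thalamic genes 2 were higher and 2 lower, with sums of 2704 to 3142 at E18.5 against 2180 to 2766 at E12.5 and Lhx9 not detected at E18.5. Lhx6, Rgs9, Pax6, Lhx9, Folr1, Kcne2, Clic6 and Otx2 are in these counts, although they entered the test only through stages where they are high. The part of these cells in the changes of the regulators was not tested. Leaving out replicate 4 of E12.5 and replicate 4 of E15.5 together gave 10 higher and 3 lower member probes at E18.5 against E12.5, 5 and 3 at E15.5 against E12.5, and 8 and 0 at E18.5 against E15.5.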

How the data were processed

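Intensities were single-colour Illumina bead signals that the authors deposited on a linear scale without normalization between arrays, with a detection p-value deposited per probe and array. The authors also deposited a table of log2 values, which equals the signals after log2 transformation and quantile normalization (largest difference 0.000492, median 6.51) and served as an alternative. The submitters' notes name lumi, and its version is not given in the sources used here.

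Signals were corrected with the normal-exponential model from detection p-values (offset 16), quantile normalized and log2 transformed with limma 3.58.1 in R 4.3.3. The 19652 probes (43.4%) with a detection p under 0.01 on at least 1 array entered 1 limma fit over all 12 arrays, with Benjamini-Hochberg adjustment over all tested probes and a threshold of 0.01. Probe pairs were fitted on within-array differences. Scripts were tested on simulated data. Symbols came from the platform annotation, where 34885 probes had 1 symbol, 18 several and 10378 none. Named were all member probes, the 3 genes most like each member and the 3 largest fitted changes of each related list. Lhx2 and Tle1 were added to these after their values were seen. The members and lists were chosen with earlier results of these data known. The number of arrays limits the precision.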

Additional observations from a re-analysis of the deposited data

Results flagged for a closer look

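Within 48 groups of 4 arrays (16 probes at 3 stages), 5 held an array far from the other 3, where chance gives about 2.4. The Mef2c probe ILMN_2732465 read 8.61 on replicate 4 of E12.5, against 7.07 to 7.28 on the other arrays of that stage. The same probe read 12.23 on replicate 3 of E18.5, against 12.31 to 12.33, a gap that is small beside any stage difference. Rorb ILMN_1252870 read 5.29 on replicate 1 of E15.5, against 5.88 to 5.97. Cux1 ILMN_1250346 read 6.49 on replicate 3 of E12.5, against 5.56 to 5.68, and Cux1 ILMN_1240019 read 5.32 on replicate 2 of E18.5, against 4.80 to 4.85.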

How the results depend on the processing

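Across 28 alternatives at most per value, the 48 single-probe results gave 1338 repeats. Of these, 1289 kept their side of the threshold, 48 lost the call and 1 gained it (Cux2 at E15.5 against E12.5, without replicate 3 of E12.5). No called value changed sign. Among the 1289, 23 repeats of 7 results that had passed no test changed sign. With a 2-fold minimum, 3 probes were higher at E15.5 versus E12.5 in place of 6, and 1 was lower at E18.5 versus E12.5 in place of 3. Without the detection filter the change between intervals was called for 3 probes in place of 5, and leaving out 1 array gave 3 to 7. Leaving out 1 array gave 5 to 11 differing probe pairs at E15.5 against E12.5 in place of 10. Without the probes detected at 1 stage only, an alternative chosen after seeing the data, the change between intervals was called for 3 probes, and 5 pairs differed at E15.5 against E12.5 and 3 at E18.5 against E12.5 in place of 8. Without background correction 4 pairs differed at E18.5 against E15.5 in place of 1. Pou3f1 at E18.5 against E15.5 did not pass without the filter (adjusted p = 0.0158) or with an intensity trend (0.0181). No pair had both probes detected on all 12 arrays, so that alternative could not be run. Median scaling put the median over all tested probes at 0.13 on the log2 scale for E18.5 against E12.5 (-0.07 with quantile normalization) and the higher share of all calls at 61.1% (47.4%), with no member call lost. That share was 62.5% (50.2%) for E15.5 against E12.5 and 61.6% (48.4%) for E18.5 against E15.5.

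With each probe's stage mean taken out, same-numbered arrays of different stages correlated at -0.33 to 0.27, and 3 of 12 pairs exceeded 0.1. Arrays of different numbers were not compared this way, so these values cannot settle whether replicate numbers pair the arrays. With the replicate number as a block, 5 probes were higher at E15.5 versus E12.5 (Rorb was lost, adjusted p = 0.0136), 9 at E18.5 versus E15.5 and 10 at E18.5 versus E12.5, and 3, 0 and 3 were lower. The causes of these shifts were not tested. Signal near background limits the dim probes of Cux1, Mef2c, Lmo4, Rorb and Mdga1.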
